A study of Mus musculus with 16 samples.

Results

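The regions described here are the stretches of the mouse genome with 5-hydroxymethylcytosine (5hmC) signal that overlap the 5′ untranslated region (5′ UTR) of a gene, the transcribed stretch between the transcription start and the first codon. They were taken from a table of 177720 regions by its gene-part annotation: a region was a member when the annotation marked a 5′ UTR, whatever else it marked. This rule used no measured value and gave 7261 regions, 4.09% of the table. Reads were counted over a whole region and not over the 5′ UTR alone, so each value belongs to the region and includes its introns and flanks.

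CD4+ T cells of 4 populations from Foxp3-eGFP reporter mice of strain C57BL/6, 5 to 6 weeks old, were compared with 2 replicates each. Naive cells were sorted from spleen and lymph nodes as CD4+eGFP-CD25-CD62LhiCD44lo, and Treg, the regulatory T cells marked by the reporter, as CD4+eGFP+. Induced regulatory T cells (iTreg) were grown from CD4+ naive T cells either with TGFβ alone or with TGFβ, retinoic acid and vitamin C. Vitamin C is a cofactor that raises the activity of TET enzymes. All animals carried the reporter, including those that gave the naive cells. Each replicate had a pull-down library made with CMS-IP, which precipitates bisulfite-treated DNA with serum against cytosine-5-methylenesulfonate, the product that bisulfite makes from 5hmC, and an input library from 1% of the DNA set aside before the pull-down. The labels do not say that replicates were separate mice or cultures, so each p-value rests on library-to-library spread alone, part or all of which may be technical.

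In mammals, TET enzymes oxidise 5-methylcytosine at CpG dinucleotides to 5hmC, an intermediate on the way to unmethylated cytosine and also a mark that lasts in gene bodies and enhancers of active genes. First exons and 5′ UTRs often lie at CpG islands, which are kept free of methylation and so have little substrate for TET, while CpG-poor promoters can be methylated and then oxidised when a gene is switched on. In T cells, Foxp3 is the transcription factor that defines regulatory cells, and removal of methylation at its locus is needed for its stable expression.

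The promoters of the 5 genes below show how unlike the starts under these regions are. Each run is the 30 bases just before a transcription start of RefSeq, read 5′ to 3′ on the gene's own strand, on build GRCm38.p6, with CG dinucleotides in capitals. The regions themselves are on build mm9, and no coordinate was converted between builds. Foxp3 has 2 starts listed, at chrX:7579646-7579675 and chrX:7580453-7580482 on the plus strand. Il2ra lies at chr2:11642762-11642791 on the plus strand, Nfil3 at chr13:52981040-52981069, Isg15 at chr4:156200819-156200848, and the first of the starts of Tcf7 at chr11:52282596-52282625, these 3 on the minus strand.
Foxp3, start 1: taaaagcaaagttgtttttgataatgtggc
Foxp3, start 2: agccacagtttagcaaaggactatatgact
Il2ra: ctatatgagatcacagaacagagtaggcac
Nfil3: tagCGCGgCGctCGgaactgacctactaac
Isg15: ctcttcacacccacagctcatacttaaaag
Tcf7, start 1: agtcacttcCGgtgccctgacctttatagg
Over 300 bases, from 250 before to 50 after the start, the 2 Foxp3 promoters held 6 and 8 CG, Il2ra held 3 and Isg15 held 6. Nfil3 held 54, the first listed Tcf7 start 17 and the second, whose bases are not shown, 45. Across the 27025 entries with a promoter sequence the median was 7 CG, and 35.2% held at least 15. Medians given later are not all whole numbers, so an entry can combine several starts of 1 gene. CG reads the same on both strands, and a count of CG describes the DNA and says nothing of methylation.

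Pull-down libraries had 1648804 to 9731897 reads in regions and input libraries 1028822 to 1563165. The TGFβ iTreg pull-downs were the shallowest, with 1.49 and 1.72 pull-down reads for each input read, against 3.14 to 3.88 with retinoic acid and vitamin C and 4.9 to 6.39 in the sorted cells. This ratio is of sequenced reads and does not measure the yield of the pull-down. Runs with the pull-downs thinned to equal depth are given below. Whether the ratio has a further part in the results was not tested. In input libraries the edgeR quasi-likelihood test, with Benjamini-Hochberg adjustment at 0.05, called 0 or 1 of 4152 testable members in each of the 6 comparisons, against 196 to 250 at an unadjusted p under 0.05. Of all 44917 testable input regions it called 0.00223% in TGFβ iTreg against naive cells and against Treg, 0.00668% and 0.00445% in the other iTreg group against the same 2, and 0.0% in the remaining comparisons. Levels are given as CPM, reads in a region scaled to a fixed library total, with the totals adjusted by TMM (edgeR's trimmed mean of log ratios), so that a level is relative within its library and gives no total amount of 5hmC. In such mixed populations a smaller share of cells with the mark and less mark in each cell cannot be told apart.

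Members were wide regions. Their median width was 2060 bp, with quartiles of 940 and 4375 bp and a range of 175 to 128857 bp, against a median of 719 bp in the other regions, and they took up 29 Mb, 11.2% of the covered length. The widest, 128857 bp, lay downstream of a start of Bach2, a repressor that keeps T cells from effector differentiation. In all, 3225 members (44.4%) lay over an annotated start, 3519 (48.5%) downstream of the nearest one by a median of 1758 bp, and 517 (7.12%) upstream by a median of 6247 bp. Besides the 5′ UTR, 51.5% were also marked as promoter, 96.1% as intron and 14.4% as 3′ UTR. They belonged to 5529 genes, of which 5507 had a symbol, and 1275 of these genes had at least 2 members, with up to 8 on 1 gene. A filter on low counts kept 6749 members (92.9%) for testing and 75.5% of the other regions. What follows on calls is about those 6749.

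As a share of pull-down reads, members took 13.6% ± 0.0707 (SD, n = 2) in naive cells, 13.2% ± 0.141 in Treg, 12.1% ± 0.283 in TGFβ iTreg and 13.5% ± 0.141 in iTreg with retinoic acid and vitamin C. Group means of the inputs were 9.98% to 10.2%. The pull-down share was thus 1.35 times the input share in naive cells, 1.29 times in Treg, 1.21 times in TGFβ iTreg and 1.35 times with retinoic acid and vitamin C. TGFβ iTreg were lowest in both replicates, at 11.9% and 12.3%, and no other library was under 13.1%. Members of at most 3000 bp had ratios of 0.833 to 0.893 in the 4 groups, and those over 3000 bp had 1.31 to 1.5. Both shares are of all reads in regions, so the ratios set members against the other regions of the table and not against the rest of the genome. Per length, the median member had 3.4 CPM per kb in naive cells, 3.41 in Treg, 3.1 in TGFβ iTreg and 3.4 with retinoic acid and vitamin C.

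Set beside other regions of the same abundance and width, members had their lowest relative level in TGFβ iTreg and their highest in naive cells. The comparison weighted the non-members to the members' make-up in 35 classes of mean abundance and width, which held 6748 of the 6749 members. Since abundance was the mean over the same 8 pull-downs, the average difference is held near 0 by construction, so the order of the groups can be read but not the sign in any of them. The mean log2 CPM of members minus that of the weighted others was 0.075 in both naive libraries and 0.046 and 0.053 in Treg. It was −0.047 and −0.039 in TGFβ iTreg, and 0.033 and 0.016 with retinoic acid and vitamin C. The 4 groups did not overlap, but Treg and the iTreg with retinoic acid and vitamin C lay no farther apart than the replicates of the latter. In the inputs of the same libraries the difference stayed between −0.019 and 0.012. These are differences of means over regions that share each library, given as a description with no test.

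**Figure D1:**
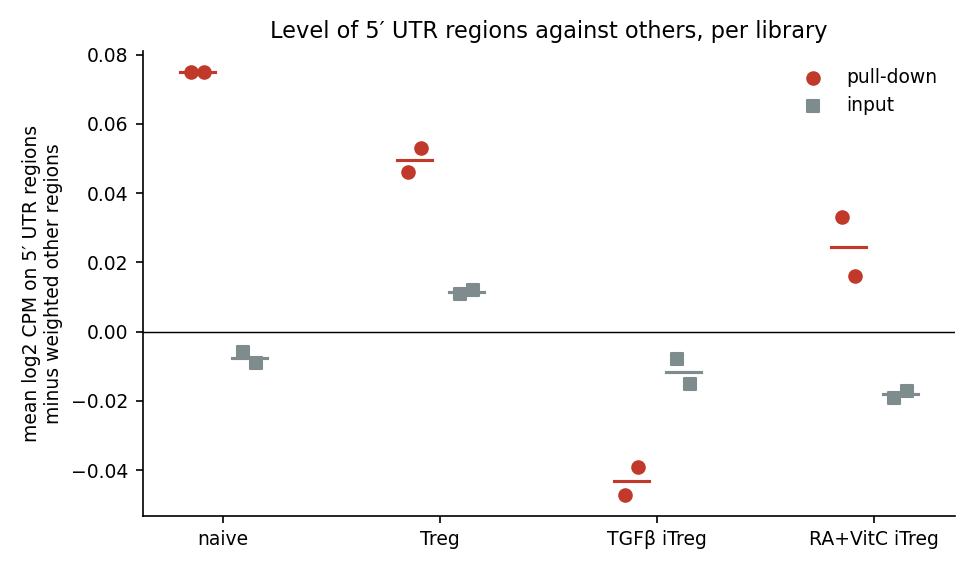
Mean log2 CPM of regions on a 5′ UTR minus that of other regions weighted to the same abundance and width, per library (points) with the group mean (line), for pull-down (circles) and input (squares). The TGFβ iTreg pull-downs lie below 0, at −0.047 and −0.039, and the other pull-downs between 0.016 and 0.075, while inputs lie between −0.019 and 0.012.

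The members of at least 1 kb with the highest mean CPM per kb over all 8 pull-downs were named, a rank that pools groups of unequal level: Trmt1l, first in it, had 3.48 CPM per kb in naive cells and 33.7 in TGFβ iTreg. Trmt1l, a tRNA methyltransferase-like gene, had 17.3 CPM per kb over 1501 bp, Gpbp1 16.7 over 3044 bp, the transcription factor gene Zbtb20 16.6 over 1148 bp and Rhoh, a GTPase needed for T cell receptor signalling, 15.8 over 32214 bp. Map3k8, a kinase of the MAP kinase cascade, followed with 15.6. All 5 were higher in both iTreg groups than in naive cells in CPM of the region itself, save that Rhoh in TGFβ iTreg, with 350 and 417 CPM, lay on both sides of the naive 390 and 401. At Trmt1l the naive libraries had 4.49 and 5.96 CPM and the TGFβ iTreg libraries 47.7 and 53.4. At Gpbp1 they had 28.1 and 29.9 against 50.6 and 78.8.

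The first comparison asked how sorted Treg differ from sorted naive cells at these regions. In Treg, 5hmC was higher on the 5′ UTR regions of regulatory and activated T cell genes such as Il2rb, Cish, Hif1a, Rora and Ikzf4, and lower on those of the naive T cell genes Il7r, Tcf7 and Foxp1 and of 14 of 29 members on interferon-stimulated genes. It was also lower on the Foxp3 region itself. Of the 6749 tested members, 842 (12.5%) were higher and 970 (14.4%) lower in Treg. Over all 135412 tested regions 13.0% were higher and 10.1% lower, and in other regions weighted to the members' abundance and width the shares were 16% and 16.4%. The members' share minus that of the weighted others was −3.54 percentage points for gains and −1.99 for losses, a description with no test. The median log2 difference was −0.04 over members and −0.01 over all tested regions.

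Members are called well-covered where the 4 libraries averaged 50 reads or more and the groups did not overlap. Among these the largest gain was on Hdac9, a histone deacetylase, followed by Nfil3, Myo1e, Coro2a and Stx11. Hdac9 (chr12:35210640-35214830) had 2.18 and 2.47 CPM in naive cells and 15.2 and 11.1 in Treg. The log2 difference was 2.47 (SE 0.22, edgeR adjusted p = 1.07e-25). It had 7.15 and 4.99 CPM in TGFβ iTreg, above naive cells by 1.35 (SE 0.41), and 3.22 and 4.18 with retinoic acid and vitamin C. Coro2a (chr4:46574954-46587928), an actin-binding coronin, had 19.5 and 18.7 CPM in naive cells and 89.1 and 88.5 in Treg, a log2 difference of 2.22 (SE 0.1, edgeR adjusted p = 8.96e-100). Its level was higher still in iTreg, from 120 to 207 CPM. Nfil3, a transcription factor that acts in Treg and helper cells, had 5.38 and 5.86 CPM against 28.9 and 27.5 (log2 2.31, SE 0.15). Myo1e, a myosin, and Stx11, a syntaxin of the secretory pathway, rose by 2.28 (SE 0.23) and 2.21 (SE 0.22) on the log2 scale. Naive and Treg libraries did not overlap at any of these 5.

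Among the same members the leading losses were smaller than the leading gains. Cd163l1, a scavenger receptor family gene, had the largest, at −1.74 (SE 0.22), from 9.36 and 11.1 CPM to 2.3 and 3.78. Gfod2 (chr8:108248637-108254978) went from 39.5 and 42.0 CPM in naive cells to 13.3 and 15 in Treg, a log2 difference of −1.53 (SE 0.12, edgeR adjusted p = 1.17e-34). Slc15a1, a peptide transporter, Adamts14, a procollagen protease, and Apol7e, an apolipoprotein L, fell by 1.52, 1.46 and 1.35 on the log2 scale.

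Genes of the regulatory T cell programme had 29 tested members, of which 18 were higher in Treg and 2 lower, with a median log2 difference of 0.71. The ladinin gene Lad1 rose by 1.11 (SE 0.08) and the zinc finger gene Plagl1 by 1.29 (SE 0.11). Ikzf4, which encodes the Foxp3 partner Eos, had 31.2 and 29.5 CPM in naive cells and 56.7 and 58.8 in Treg (log2 0.93, SE 0.1). The 2 members of the list that were lower were Foxp3 and Il2ra. Foxp3 (chrX:7156699-7163183), the region over its start, had 11.4 and 12.9 CPM in naive cells and 5.24 and 7.32 in Treg, a log2 difference of −0.95 (SE 0.18, edgeR adjusted p = 3.5e-06). Both Treg libraries were thus lower than both naive ones at the gene that the reporter marks, and 5hmC is not a measure of its expression. Il2ra, the high-affinity chain of the interleukin-2 receptor, had 5.26 and 4.11 CPM against 3.71 and 2.01, a log2 difference of −0.71 (SE 0.27, edgeR adjusted p = 0.0412). That call was lost without naive replicate 1 or Treg replicate 2 and by DESeq2, and with libraries thinned to equal depth the difference was 0.76.

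Genes induced by T cell receptor signalling had 21 tested members, 15 higher and 0 lower, with a median of 0.67. Il2rb, the signalling chain that interleukin-2 and interleukin-15 share, rose from 59.4 and 58.8 CPM to 155 and 160 (log2 1.42, SE 0.08). Cish, a brake on cytokine signalling, rose by 1.23 (SE 0.09), the orphan receptor Nr4a3 by 1.61 (SE 0.12) and the hypoxia factor Hif1a by 1.46 (SE 0.11). Helper lineage genes had 26 tested members, 15 higher (9 by DESeq2 and 7 at fewest under other settings) and 2 lower. Rora, a nuclear receptor of Th17 cells, rose from 38.3 and 43.0 CPM to 125 and 129 (log2 1.64, SE 0.09), and 2 regions of the chemokine receptor gene Ccr6 rose by 1.4 and 1.68.

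Naive T cell genes had 23 tested members, 14 lower and 1 higher, with a median of −0.33. Il7r, the interleukin-7 receptor that sustains naive cells, fell from 60.5 and 60.9 CPM to 22.5 and 28.8 (log2 −1.24, SE 0.1). Tcf7, a transcription factor of naive and stem-like T cells, fell from 185 and 193 CPM to 122 and 120 (log2 −0.65, SE 0.07). T cell receptor and identity genes had 25 tested members, 11 lower and 0 higher. The lower count was 7 without naive replicate 2 or by DESeq2, and 4 at fewest under other settings. Among the lower were Cd4 (log2 −0.48), Cd247 (−0.37) and Cd5 (−0.4). Interferon-stimulated genes had 29 tested members, 14 lower and 2 higher. Oas2, a sensor of viral RNA, fell from 25.1 and 23.9 CPM to 10.5 and 10.9 (log2 −1.2, SE 0.14). Tet1 lost signal downstream of its start, from 95.3 and 95.6 CPM to 46.5 and 43.4 (log2 −1.09, SE 0.09), while a region of Tet2 rose by 0.98 (SE 0.13). None of the gene lists was chosen independently of these data, so their counts are descriptions. Regions of 1 gene are counted separately in every list, and the 14 lower naive T cell members lay on 9 genes.

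Without naive replicate 2 the members called fell to 513 higher and 570 lower, and with the libraries thinned to the depth of the shallowest to 252 and 250. For interferon-stimulated genes the lower count was 9 without naive replicate 1, 5 by DESeq2 and 4 after thinning, and for the regulatory programme the higher count was 7 after thinning and 9 among regions with a mean of at least 50 reads.

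**Figure D2:**
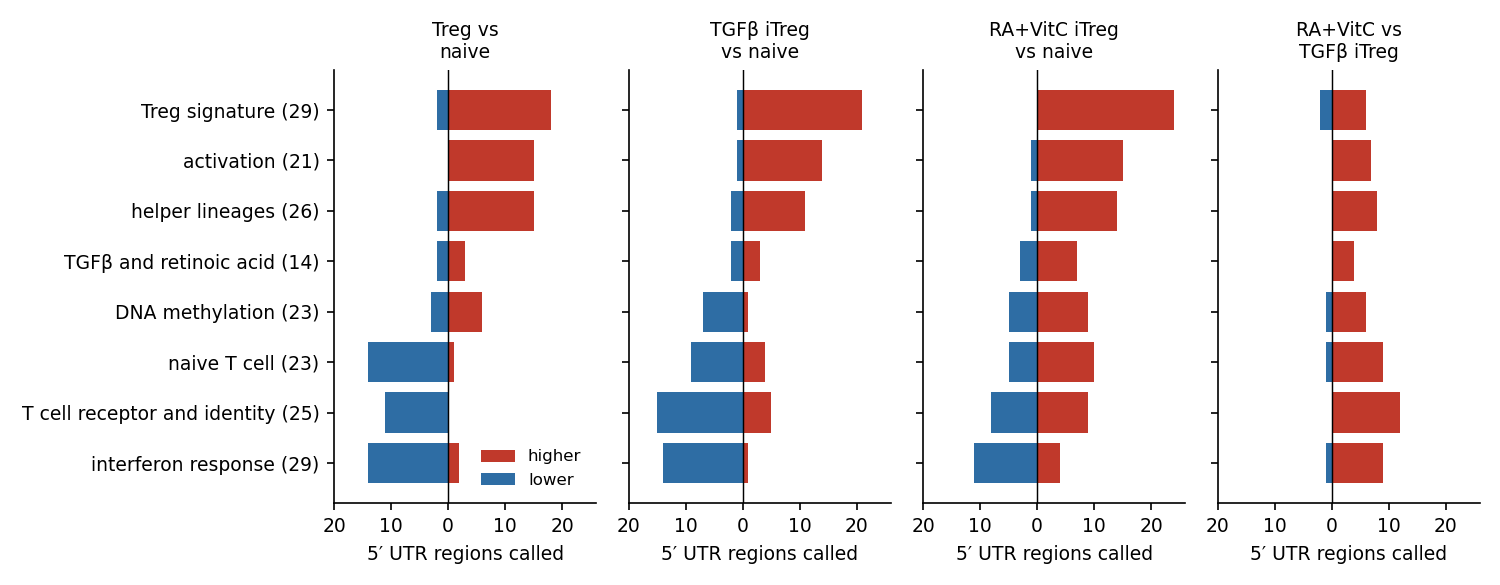
Number of regions on a 5′ UTR called higher (right, red) or lower (left, blue) in 4 comparisons, for 8 gene lists with the tested regions of each in parentheses. In Treg against naive cells 18 of 29 Treg signature regions were higher and 14 of 29 interferon response regions lower; in the comparison of iTreg with and without retinoic acid and vitamin C most called regions of these lists were higher.

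The second comparison was of TGFβ iTreg with the naive cells from which such cells are grown. Regions over the starts of Foxp3, Il2ra and Ctla4 gained 5hmC many times over, while the median over members was below 0, and 15 of 25 members on T cell receptor genes, 14 of 29 on interferon genes and 9 of 23 on naive T cell genes were lower. Of the 6749 members 772 (11.4%) were higher and 1186 (17.6%) lower, where all tested regions gave 13.1% higher and 8.28% lower. At equal abundance and width the other regions gave 16.5% and 15.8%. The members' share minus that of the weighted others was −5.06 percentage points for gains and 1.8 points for losses. The median log2 difference was −0.19 over members, −0.03 over all tested regions and −0.09 over the weighted others, and 61.2% of members were below 0 against 51.6% of all regions.

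Among the steepest gains was Ccr6, a chemokine receptor of Th17 cells and Treg, whose region at chr17:8444166-8446266 went from 1.15 and 0.925 CPM in naive cells to 23.8 and 22.0 in TGFβ iTreg, a log2 difference of 4.44 (SE 0.32, edgeR adjusted p = 1.74e-41). The extracellular matrix gene Ecm2 went from 2.69 and 2.26 CPM to 48.3 and 57.9 (log2 4.43, SE 0.21). Akap7, a kinase anchor, went from 5.9 and 5.14 to 99.5 and 88.3 (log2 4.09, SE 0.16). Il2ra went from 5.26 and 4.11 CPM to 68.5 and 79.8, a log2 difference of 4.0 (SE 0.17, edgeR adjusted p = 2.67e-113). Foxp3 went from 11.4 and 12.9 CPM to 96.5 and 130 (log2 3.22, SE 0.13, edgeR adjusted p = 2.86e-127). In both, every TGFβ iTreg library lay far above every library of the other 3 populations, sorted Treg included. With Ecm2, Akap7 and Il2ra, the 5 largest gains among well-covered members were completed by Spatc1l (log2 3.81, SE 0.21) and Nfil3 (3.57, SE 0.17). Little is known of the role of Spatc1l.

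Losses among well-covered members were led by Wdr73, a WD-repeat gene, at −2.19 (SE 0.4), from 12.7 and 9.97 CPM to 2.98 and 2.0. Shkbp1 and the ubiquitin ligase gene Rnf220 fell by 1.83 and 1.74 on the log2 scale. Isg15, a ubiquitin-like protein induced by interferon, fell from 30 and 31.9 CPM to 8.34 and 9.48 (log2 −1.79, SE 0.23, edgeR adjusted p = 2.46e-13). Those levels rest on few reads, since 3 reads were worth 1.73 and 1.45 CPM in the TGFβ iTreg libraries.

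In the regulatory T cell programme 21 of 29 tested members were higher and 1 lower, with a median of 1.01. The checkpoint receptor gene Ctla4 rose from 76.9 and 75.3 CPM to 371 and 456 (log2 2.45, SE 0.09), and the costimulatory receptor gene Tnfrsf4 by 1.01 (SE 0.1). The lower one was the chemokine receptor gene Ccr8, at −0.5 (SE 0.12). Activation genes had 14 of 21 members higher and 1 lower: Cish rose from 44.7 and 48.1 CPM to 380 and 466 (log2 3.19, SE 0.09) and a region over a start of Nfkb1 by 1.83 (SE 0.1), while the early growth response gene Egr2 fell by 0.72 (SE 0.14). Helper lineage genes had 11 of 26 higher and 2 lower.

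On T cell receptor and identity genes 15 of 25 members were lower and 5 higher (1 without TGFβ iTreg replicate 2, 3 without naive replicate 2), with a median of −0.46. The kinase gene Fyn fell from 344 and 326 CPM to 138 and 165 (log2 −1.14, SE 0.09), Cd6 by 1.12 and Cd4 by 1.36, the latter from 58.7 and 62.0 CPM to 14.3 and 31.4. Rhoh rose over its start by 0.78 (SE 0.11). On naive T cell genes 9 of 23 were lower and 4 higher (1 without TGFβ iTreg replicate 2). Tcf7 fell to 75.7 and 89.3 CPM (log2 −1.19, SE 0.1) and the chromatin organiser gene Satb1 from 358 and 364 to 185 and 194 (−0.93, SE 0.09). Interferon-stimulated genes were lower at 14 of 29 members and higher at 1. Irf9, a transcription factor of the interferon response, fell by 1.42 (SE 0.15) and Tap1, a peptide transporter for antigen presentation, by 1.37 (SE 0.13), while Ifit3 rose by 0.6 (SE 0.14). Without TGFβ iTreg replicate 1 the interferon list had 8 lower.

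Genes of DNA methylation and its removal had 7 of 23 members lower and 1 higher. The lower count was 3 without TGFβ iTreg replicate 1, 4 without naive replicate 2 and 3 after thinning. Tet3 had both: its region over the start (chr6:83367116-83405346) fell from 281 and 287 CPM to 204 and 227 (log2 −0.4, SE 0.09), and the one downstream (chr6:83339370-83365972) rose from 155 and 154 to 186 and 189 (log2 0.28, SE 0.09, edgeR adjusted p = 0.0113). The rise was lost when naive replicate 1, naive replicate 2 or TGFβ iTreg replicate 2 was left out. Tet1 fell downstream of its start by 0.8 (SE 0.12) and a region of the methyltransferase gene Dnmt3a by 0.68 (SE 0.15), the latter lost without TGFβ iTreg replicate 1.

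Counts of members leaned on single libraries: without TGFβ iTreg replicate 1 the lower count was 664, and without TGFβ iTreg replicate 2 the higher count was 448. DESeq2 gave 602 higher and 652 lower, so the excess of losses among members was smaller there.

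**Figure D3:**
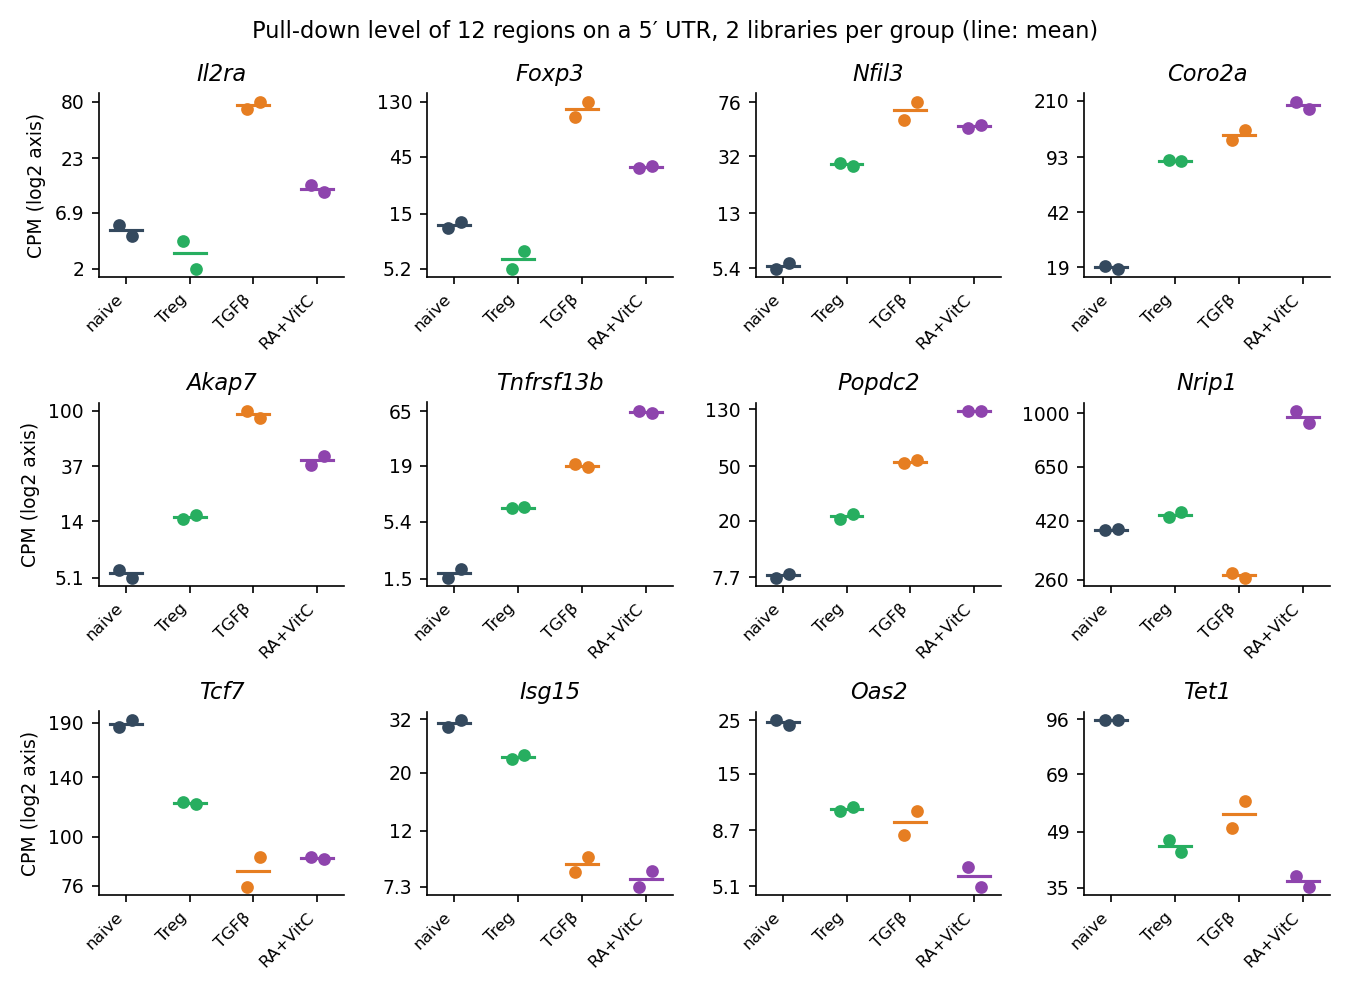
Pull-down level in CPM, on a log2 axis, of 12 named regions on a 5′ UTR in the 4 groups, with 1 point per library and a line at the mean; where a gene has several named regions the widest is drawn. Il2ra and Foxp3 peak in TGFβ iTreg (68.5 to 130 CPM), Tnfrsf13b, Popdc2 and Nrip1 in iTreg with retinoic acid and vitamin C, and Tcf7, Isg15, Oas2 and Tet1 in naive cells.

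The third comparison set iTreg grown with retinoic acid and vitamin C against naive cells. It had the most calls, with strong gains on genes with few reads in naive cells, on the regulatory programme and on the naive factors Foxp1 and Bach2, and with losses at 11 of 29 members on interferon genes. Of the members, 1506 (22.3%) were higher and 1311 (19.4%) lower. All tested regions gave 21.9% and 15.8%, together 37.8%, and other regions of the same abundance and width 27.2% and 21.2%. The median log2 difference was −0.03 over members and −0.04 over all regions. Scaling by library totals in place of TMM moved the median of all regions to −0.263 and turned the balance to 1144 higher and 2142 lower, so in comparisons with this group a difference near that size has no settled direction.

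Syndig1l, a relative of a synapse differentiation gene, had the largest gain among well-covered members, from 1.15 and 1.34 CPM in naive cells to 66.2 and 49.0, a log2 difference of 5.5 (SE 0.21, edgeR adjusted p = 1.74e-153). Tnfrsf13b, which encodes the BAFF and APRIL receptor TACI, went from 1.54 and 1.85 to 65.3 and 62.8 (log2 5.21, SE 0.19). Rnf222 (4.71, SE 0.26), the imprinted non-coding RNA gene H19 (4.16, SE 0.22) and Popdc2 (3.99, SE 0.12) were next. H19 was low everywhere else, with 1.18 to 8.48 CPM in the other 6 libraries, and had 33.1 and 35.0 here. Among the same members Oas2 fell most, from 25.1 and 23.9 CPM to 6.15 and 5.08 (log2 −2.12, SE 0.21). Ccdc77, Henmt1, Ptprf and Mpp4 lay within −2.09 to −2.07.

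Of the 29 members of the regulatory programme 24 were higher and 0 lower, with a median of 1.33. Ctla4 reached 442 and 419 CPM (log2 2.5, SE 0.08), Gpr83, a receptor of Treg, rose from 80.6 and 77.7 to 258 and 242 (1.66, SE 0.08), and Ikzf4 from 31.2 and 29.5 to 120 and 117 (1.97, SE 0.1). Thinned to equal depth 15 were higher, with library totals 19, and with only regions of at least 50 mean reads tested 12. Activation genes had 15 of 21 members higher and 1 lower, the latter Nr4a1 at −0.54, a call lost without replicate 1 of this iTreg group. Irf8 rose from 18.8 and 17.8 CPM to 131 and 125 (log2 2.81, SE 0.11). Helper lineage genes had 14 of 26 higher and 1 lower, and genes of TGFβ and retinoic acid signalling 7 of 14 higher (4 without naive replicate 2) and 3 lower. There Tgif1, a corepressor of TGFβ signalling, rose from 11.2 and 12.6 CPM to 60.1 and 55.3 (2.27, SE 0.14), the gut-homing receptor gene Ccr9 by 0.95 (SE 0.09), and the coreceptor gene Tgfbr3 fell by 1.0 (SE 0.09).

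On naive T cell genes the list split by gene, with 10 of 23 members higher and 5 lower (8 and 8 with library totals). The higher members lay on 5 genes and the lower on 5 others, so by gene the list was even. Bach2 rose from 1180 CPM in both naive libraries to 1970 and 1830 (log2 0.69, SE 0.07), and a Foxp1 region over its start from 286 and 283 to 717 and 654 (1.27, SE 0.07). Tcf7 fell by 1.09, Satb1 by 0.92 and Il7r by 1.33. T cell receptor and identity genes likewise had 9 of 25 higher and 8 lower, which library totals turned to 7 and 15. Runx1, a T lineage transcription factor, rose by 1.29 (SE 0.09), and Cd4 fell by 1.17 (SE 0.13). Interferon-stimulated genes had 11 of 29 lower (17 with library totals) and 4 higher. Isg15 fell to 7.32 and 8.37 CPM (−1.98, SE 0.19). In DNA methylation genes 9 of 23 were higher and 5 lower. The lower count was 3 without naive replicate 2 or replicate 1 of this iTreg group and 1 without its replicate 2, and the higher count was 5 after thinning. Dnmt1, the maintenance methyltransferase, rose by 0.66 (SE 0.1), Dnmt3b by 1.29 (SE 0.21) and the downstream Tet3 region by 0.57 (SE 0.08), while Tet1 fell to 37.5 and 35.3 CPM (−1.39, SE 0.11). The lower count of members was 778 without replicate 1 of this iTreg group and 785 without its replicate 2.

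The fourth comparison asked what retinoic acid and vitamin C changed among TGFβ-grown iTreg. With TMM scaling, most called members were higher: 5hmC was higher with the additions on wide regions of Nrip1, Runx1, Rhoh, Foxp1 and Bach2, and lower on fewer, among them Il2ra, Ecm2 and Foxp3. In numbers, 749 members (11.1%) were higher and 112 (1.66%) lower, against 4.6% and 1.98% of all tested regions, together 6.58%. Weighting for abundance and width closed the gap in gains, at 10.9%, and left members with fewer losses, at 1.66% against 2.86%. The median log2 difference was 0.16 over members, 0.02 over all regions and 0.06 over the weighted others.

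Nrip1, a corepressor of nuclear receptors, went from 274 and 265 CPM to 1020 and 923 (log2 1.85, SE 0.08, edgeR adjusted p = 3.91e-107). Runx1 went from 40.5 and 39.9 to 173 and 155 (2.03, SE 0.13), H19 from 3.57 and 8.48 to 33.1 and 35.0 (2.44, SE 0.27), Syndig1l from 14.9 and 14.0 to 66.2 and 49.0 (2.0, SE 0.19), and Tceanc2 by 1.9 (SE 0.19). In the other direction, Il2ra went from 68.5 and 79.8 CPM to 12.6 and 10.8 (log2 −2.67, SE 0.18, edgeR adjusted p = 3.98e-47). Foxp3 went from 96.5 and 130 to 36.6 and 37.7 (−1.62, SE 0.13, edgeR adjusted p = 4.65e-33), and Ecm2, Lmna and Akap7 fell by 2.02, 1.22 and 1.18. At Il2ra and Foxp3 the 2 iTreg groups did not overlap, and both were above naive cells.

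In the regulatory programme 6 of 29 members were higher and 2 lower, the 2 being Il2ra and Foxp3. Gpr83 rose by 1.22 (SE 0.1) and Izumo1r, which encodes folate receptor 4, by 1.19 (SE 0.11). T cell receptor and identity genes had 12 of 25 higher and 0 lower (8 and 0 with library totals). Rhoh rose downstream of its start from 350 and 417 CPM to 989 and 881 (1.28, SE 0.08), and Fyn by 0.72 (SE 0.1). Naive T cell genes had 9 of 23 higher, on 4 genes, and 1 lower. Of the 5 named Foxp1 regions, the one at chr6:99178100-99210849 rose by 1.17 (SE 0.09) and the one at chr6:99216494-99266318 by 1.14 (SE 0.08), while Bach2 rose by 0.93 (SE 0.07). Activation genes had 7 of 21 higher and 0 lower, and helper lineage genes 8 of 26 and 0. Without TGFβ iTreg replicate 1 these were 4 and 1, and 5 and 1, and with library totals 4 and 3, and 5 and 2. In DNA methylation genes 6 of 23 were higher and 1 lower. The higher count was 2 without TGFβ iTreg replicate 1, 3 without replicate 1 of the other group and 3 with library totals, and the lower count was 0 without TGFβ iTreg replicate 2 or either replicate of the other group. Dnmt1 rose by 0.97 (SE 0.14) and the Tet3 region over the start by 0.62 (SE 0.09). Interferon-stimulated genes had 9 of 29 higher and 1 lower. The higher count was 2 with library totals, after thinning or without TGFβ iTreg replicate 1, and 4 without replicate 1 of the other group, where the lower count was 0.

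Scaling moved these values. Library totals shifted the median of all regions to −0.17 and that of members to −0.022, and a mean of at least 50 reads put the members' median at 0.029. Library totals gave 467 members higher and 240 lower, which is 66.1% higher among those called against 87.0% with TMM; thinning gave 435 and 139, a mean of at least 50 reads 471 and 273, and a fit to these 4 libraries 549 and 205. Without TGFβ iTreg replicate 1 there were 467 higher, and the lower count was 36 without TGFβ iTreg replicate 2 and 54 and 62 without replicates 1 and 2 of the other group.

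Against sorted Treg, both iTreg populations had far more signal over the starts of Foxp3 and Il2ra and on Ctla4. TGFβ iTreg had 684 members (10.1%) higher and 899 (13.3%) lower than Treg, where all tested regions gave 9.55% and 5.88%, and weighted others 13.6% and 11.6%. iTreg with retinoic acid and vitamin C had 1421 (21.1%) higher and 973 (14.4%) lower, where all regions gave 17.8% and 11.4%, and weighted others 24.6% and 15.6%. These comparisons share libraries with those above and are not independent of them. Foxp3 differed by 4.17 (SE 0.15) in TGFβ iTreg and 2.55 (SE 0.17) with the additions. Ifitm3, an interferon-induced membrane gene, had 14.2 and 12.5 CPM in Treg and 103 and 104 in TGFβ iTreg (2.96, SE 0.14). Mavs, the adaptor of RNA sensing, had 1.92 and 1.89 in Treg and 34.0 and 34.7 with retinoic acid and vitamin C (4.16, SE 0.22).

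Some regions were higher in Treg than in either iTreg. Lad1 was lower by 0.72 (SE 0.11) in TGFβ iTreg and by 0.75 (SE 0.09) with the additions, and Nr4a1, a gene switched on by T cell receptor signals, had 93.3 and 92.4 CPM in Treg, 39.3 and 42.9 in TGFβ iTreg and 28.7 and 35.3 with retinoic acid and vitamin C. Hdac9 and the transporter gene Slc45a3 were lower with the additions by 1.82 and 2.56 on the log2 scale. Without TGFβ iTreg replicate 1 the lower count against Treg was 449, without TGFβ iTreg replicate 2 the higher count was 371 and the lower 586. For the other group the lower count was 479 and 523 without its replicates 1 and 2, and library totals gave 1883 lower.

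**Figure D4:**
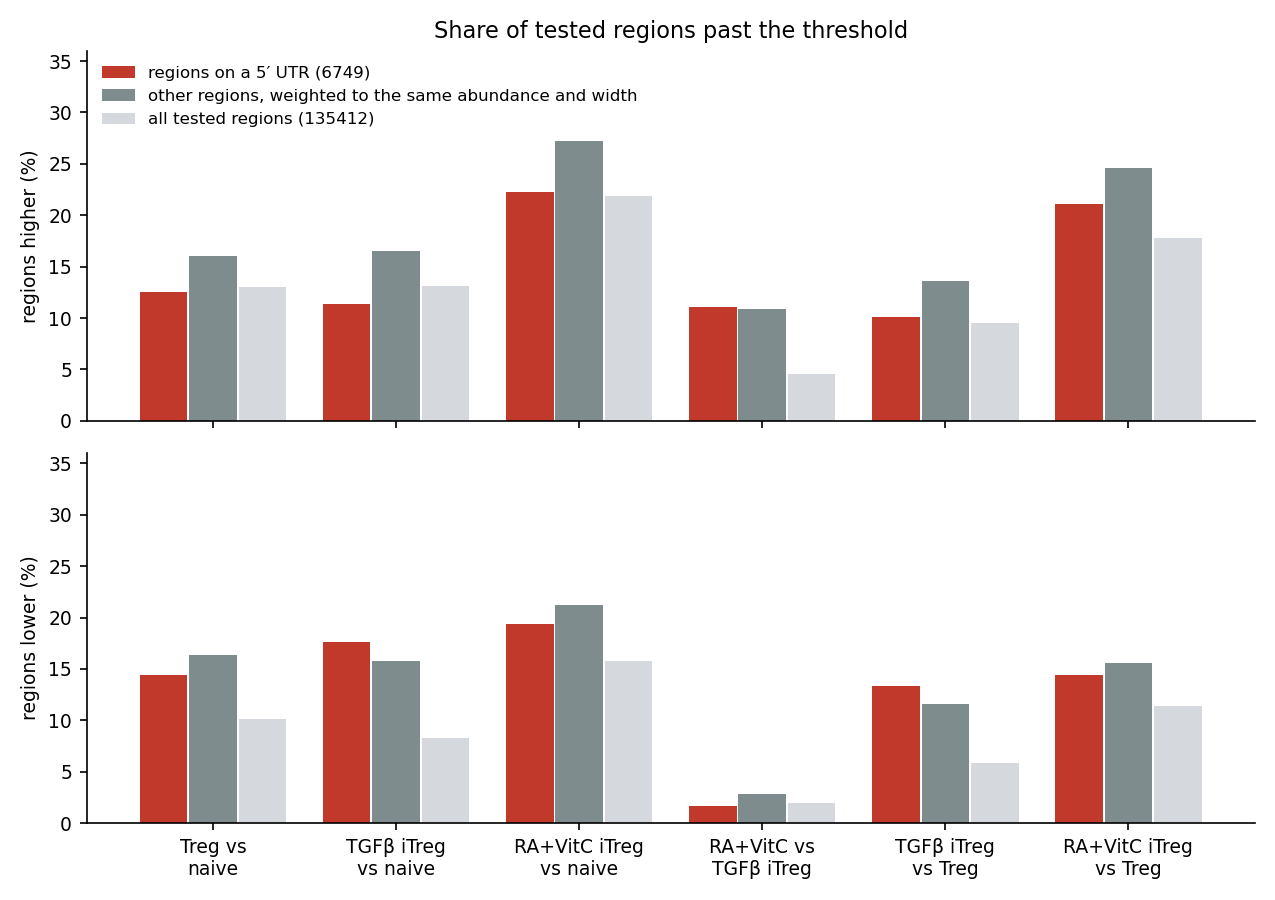
Share of tested regions past the threshold, higher (top) and lower (bottom), in 6 comparisons, for regions on a 5′ UTR, for other regions weighted to the same abundance and width, and for all tested regions. In TGFβ iTreg against naive cells 17.6% of members were lower, against 15.8% of weighted others and 8.28% of all regions.

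How often a member was called depended strongly on its width, as it did in other regions. In TGFβ iTreg against naive cells 3.7% of members up to 1 kb were lower, 9.43% of those from 1 to 3 kb, 27% from 3 to 10 kb and 51.2% over 10 kb. The other regions gave 3.38%, 8.03%, 21.7% and 46.3%. Between the iTreg groups the share higher with retinoic acid and vitamin C rose over the same classes from 1.26% to 47.9% in members and from 1.28% to 40.4% in others. Wide regions also hold more reads, and the part of read number in this trend was not tested. The median log2 difference went from −0.07 in the narrowest members to −0.34 in the widest in TGFβ iTreg against naive cells, and from 0.05 to −0.26 in other regions. Between the iTreg groups it went from 0.12 to 0.35 in members and from −0.03 to 0.3 in others.

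**Figure D5:**
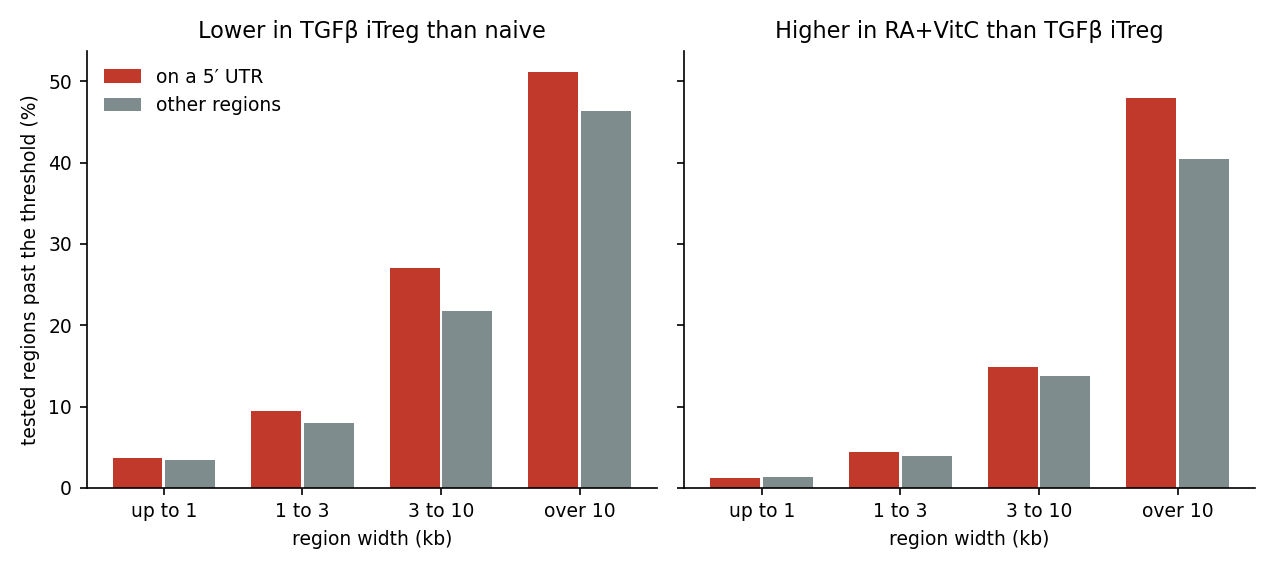
Share of tested regions past the threshold by region width in kb, for regions on a 5′ UTR (red) and other regions (grey), lower in TGFβ iTreg than in naive cells (left) and higher with retinoic acid and vitamin C than with TGFβ alone (right). Both shares climb with width, to 51.2% and 47.9% of members over 10 kb.

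Members over a start could be set beside 1064 tested regions that lie over a start but carry no 5′ UTR mark. In TGFβ iTreg against naive cells 18.1% of the members and 18.3% of those others were lower, and 14.1% and 15.3% higher. Members downstream of a start gave 17.4% lower and 9.23% higher, and those upstream 15.7% and 8.96%. The other downstream regions, not weighted for width or abundance, gave 8.16% lower and 12.1% higher.

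Promoter sequence was looked up in RefSeq for the members of 1 gene each, and 5414 of 6659 such tested members matched. The median value at the promoters of their genes was 18.5 CG in 300 bases, against 7 over the 27025 promoter entries. Those entries were not limited to genes with a 5′ UTR, so the sets may differ in kind of gene. A gene's value can combine several starts and need not describe the start under the region. By position the median was 13 for members over the start, 22 for those downstream and 22.3 for those upstream. For the 2414 members over a start, 1110 had at least 15 CG and 1304 had fewer. In TGFβ iTreg against naive cells the CG-rich class was lower at 19.6% of regions and higher at 11%, with a median log2 difference of −0.23. The class with fewer CG was lower at 16.5% and higher at 16.9%, with a median of −0.11. In naive cells the CG-rich class had 3.51 and 3.46 CPM per kb and the other 3.32 and 3.28, and in TGFβ iTreg 3.05 and 3.18 against 3.14 and 3.35, the reverse order in both replicates. With retinoic acid and vitamin C the classes were nearly level in replicate 1, at 3.47 against 3.49, and reversed in replicate 2, at 3.45 against 3.59. Treg had 3.54 and 3.48 against 3.28 and 3.35. Inputs had 3.4 to 3.49 CPM per kb in the CG-rich class and 3.25 to 3.3 in the other in TGFβ iTreg, the same order as in naive inputs. Naive inputs had 3.44 in both replicates against 3.31 and 3.34. With retinoic acid and vitamin C the inputs had 3.31 and 3.39 against 3.28 and 3.24, so in replicate 1 the input classes were also close. The CG-rich members were also somewhat wider, with a median of 2770 bp against 2540 bp.

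Markers of other cells of spleen and lymph node were looked up among the members. Among tested members 6 lay on B cell genes, 4 on myeloid and dendritic cell genes and 7 on CD8 T and NK cell genes, and none of these regions was at 0 in any pull-down. The summed level of B cell members was 123 to 133 CPM in the sorted cells and 79.2 to 106 in iTreg. Myeloid members summed to 14.2 to 22.9 CPM in sorted cells and 10.5 to 17.3 in iTreg, and CD8 and NK members to 144 to 172 and 114 to 135. In the inputs the sums were 71.3 to 91.3 CPM for B cell, 17.1 to 26.5 for myeloid and 111 to 129 for CD8 and NK members. Myeloid members, and CD8 and NK members in iTreg, thus lay near or below their input level. In Treg against naive cells 2 of the 7 CD8 and NK members were lower and 0 higher, where all tested regions gave 10.1% and 13.0%. In TGFβ iTreg against naive cells 2 of the 6 B cell members were lower, and of the 7 CD8 and NK members 2 were higher and 2 lower. All tested regions gave 13.1% higher and 8.28% lower there. Cd8a fell by 1.38 (SE 0.14) and Gzmb, a cytotoxic protease that activated T cells also make, rose by 1.89 (SE 0.26). A 5hmC region does not show which cells carry it, and the part of other cells in the results was not tested.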

How the data were processed

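CMS-IP and input libraries of 4 populations were analysed, 2 replicates each. The authors deposited read counts per region for 177720 regions with gene-part annotation, on build mm9, per the file headers. MACS2 2.1.0.20151222, Trim Galore 0.4.2, bcl2fastq 2.20.0.442 and SAMtools 1.7 are named in the submitters' processing notes. Not given in the sources used here were the aligner, the counter and whether peaks were called on pooled samples.

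All 8 pull-downs were fitted together with edgeR 4.0.16 in R 4.3.3: TMM, filterByExpr with a minimum count of 10, quasi-likelihood tests with 4 residual degrees of freedom, and Benjamini-Hochberg adjustment over 135412 regions at 0.05. SE is the absolute log2 difference over the root of F. Log2 CPM had a prior count of 2. Genes were named by the Entrez IDs of the 5′ UTR annotation through RefSeq (GRCm38.p6, names only). The edgeR fit was tried on simulated counts with known changes in Treg against naive cells. The weighting of other regions, the gene lists and the promoter lookup were not part of that trial.

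Named regions were, per comparison, the 5 highest and 5 lowest log2 differences among called members with a mean of at least 50 reads, no overlap between libraries and a symbol that is not a predicted gene. Added to these were up to 4 of lowest p per gene list and direction, and the 5 of highest CPM per kb among members of at least 1 kb. Some regions that this rule names are not reported here. The members and the 16 lists were chosen with earlier results of these data known. Alternatives were library totals, DESeq2 1.42.0, other count filters, equal depth, a replicate block, fits to 4 libraries, leaving out each library, and narrower definitions of members.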

Additional observations from a re-analysis of the deposited data

How the results depend on the processing

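Counts are given as higher/lower. DESeq2 called 347/307 members in Treg against naive cells, and lower counts of 652 in TGFβ iTreg and 649 in iTreg with retinoic acid and vitamin C (RA+VitC) against naive cells, 67 in RA+VitC against TGFβ iTreg, 438 in TGFβ iTreg and 390 in RA+VitC against Treg. Library totals in place of TMM gave lower counts of 2142 in RA+VitC against naive cells and 1883 against Treg, and 467/240 in RA+VitC against TGFβ iTreg, with the share higher among called members going from 53.5% to 34.8%, from 59.4% to 34.4% and from 87.0% to 66.1%. Thinned to equal depth, the counts were 252/250 in Treg and 796/787 in RA+VitC against naive cells, 435 higher in RA+VitC against TGFβ iTreg, 590 lower in TGFβ iTreg and 750/556 in RA+VitC against Treg. With a mean of at least 50 reads they were 646 lower in Treg, 786 lower in TGFβ iTreg and 882 higher in RA+VitC against naive cells, 471/273 in RA+VitC against TGFβ iTreg and 828 higher in RA+VitC against Treg. A fit to the 4 libraries compared gave 205 lower in RA+VitC against TGFβ iTreg. The cause of these shifts was not tested.

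Fewer members were counted by construction in the narrower definitions. In the order Treg, TGFβ iTreg and RA+VitC against naive cells, RA+VitC against TGFβ iTreg, then TGFβ iTreg and RA+VitC against Treg, members of at most 3000 bp gave 381/321, 352/300, 681/539, 132/51, 284/223 and 572/401, and members marked as promoter 448/521, 460/643, 852/692, 395/63, 425/485 and 803/518. The narrow members held 1.98%, 2.0%, 1.9% and 1.85% of pull-down reads in naive cells, Treg, TGFβ iTreg and RA+VitC, and 2.23%, 2.26%, 2.22% and 2.22% of input reads.

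Leaving out 1 library at a time, higher counts ranged, in the same order, from 513 to 843, 448 to 770, 1207 to 1564, 467 to 712, 371 to 677 and 1096 to 1508, and lower counts from 570 to 1010, 664 to 1198, 778 to 1391, 36 to 135, 449 to 874 and 479 to 1011. The members' share minus that of the weighted others, in percentage points, ranged for gains from −3.63 to −2.86, −5.63 to −3.58, −5.36 to −4.51, 0.248 to 0.45, −3.98 to −2.49 and −4.47 to −3.28, and for losses from −1.96 to −1.31, 0.845 to 1.96, −1.88 to −1.04, −1.35 to −0.405, 0.69 to 1.94 and −1.27 to −0.822. With DESeq2 that difference was −2.18 for gains and −0.398 for losses in Treg against naive cells. With library totals it was, for losses in RA+VitC, −0.709 against naive cells, −1.9 against TGFβ iTreg and −0.275 against Treg. At equal depth it was, for gains, −2.02, −6.47 and −6.05 in Treg, TGFβ iTreg and RA+VitC against naive cells and −4.57 in TGFβ iTreg against Treg, and for losses −0.384 and −0.3 in Treg and RA+VitC against naive cells and −1.62 between the iTreg groups. For the weighted others, library totals, DESeq2, equal depth and leaving out libraries were alternatives chosen after seeing the data, as were all alternatives for the gene lists.

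The correlation of same-numbered deviations was 0.00806 for naive cells with Treg and 0.00525 between the iTreg groups. Pull-down replicates differed little beyond counting error, with a chi-square over degrees of freedom of 1.12 to 1.23. A low correlation thus cannot show whether libraries were paired. The titles of both iTreg groups carry the same suffixes, whose meaning the labels do not give. A block was also fitted, with 1 term for the numbers of the sorted libraries and 1 for the title suffixes of the iTreg libraries. The counts were then 820/920, 754/1160, 1480/1311, 715/100, 652/878 and 1369/971. Of 454 named region and comparison pairs, 317 kept their call and direction under every alternative run. The 1 reversal was Il2ra in Treg against naive cells, at 0.76 at equal depth against −0.71. Depth limits the TGFβ iTreg libraries most, where 3 reads were worth 1.73 and 1.45 CPM, against 0.296 to 0.871 in the others.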

Other observations

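Some genes carry several regions on a 5′ UTR that moved in opposite directions. Of 1148 genes with at least 2 tested members, 26 had calls in both directions in Treg against naive cells, 39 in TGFβ iTreg and 78 in iTreg with retinoic acid and vitamin C against naive cells, and 1 between the iTreg groups. Only genes with at least 2 calls could have both, and these numbered 197, 171, 333 and 61 in the same order. No such count is given here for other regions. The 1 gene between the iTreg groups was Lcp1, which encodes the actin bundler L-plastin, with log2 differences of 0.42 and −0.82.

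Treg against naive cells and the comparison of the iTreg groups share no library. Of the members higher in the first, 182 were also higher in the second, which is 21.6% of 842 and 24.3% of 749. Of those lower in the first, 152 were higher in the second, 15.7% of 970 and 20.3% of 749. Lower in both were 33, 3.4% of 970 and 29.5% of 112, and 24 were higher in the first and lower in the second, 2.85% of 842 and 21.4% of 112. Over all tested regions the same shares were 9.4% and 26.6% for higher in both, 5.56% and 12.2% for lower then higher, 4.2% and 21.5% for lower in both, and 2.97% and 19.5% for higher then lower. The base shares also differed. In the second comparison 11.1% of members and 4.6% of all tested regions were higher, and 1.66% and 1.98% lower. In the first 12.5% and 13.0% were higher, and 14.4% and 10.1% lower. Whether the overlap is particular to members was not tested.

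Smaller lists covered cell cycle, metabolism and protein turnover. In iTreg with retinoic acid and vitamin C against naive cells, where 21.9% of all tested regions were higher and 15.8% lower, 4 of 6 cell cycle members were higher (1 at equal depth) and 1 lower, led by the mitotic kinase gene Cdk1 (log2 1.28, SE 0.15) and, downward, the cyclin gene Ccnd3 (−0.96, SE 0.09). For glycolysis 2 of 13 were higher and 3 lower, for cytosolic ribosomal proteins 1 of 8 and 0, for mitochondrial ribosomal proteins 1 of 9 and 1, and for the proteasome 1 of 9 and 1. With 8 or 9 members each, the counts for ribosomal proteins and the proteasome are too small to be told apart from the shares over all regions.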
